A study of Homo sapiens with 15 samples.

Results

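Genes known from the outer layers of the epidermis were followed in a colorectal cancer cell line induced to make wild-type or mutant SOX9. They are 5 kallikreins (KLK6, KLK7, KLK8, KLK10 and KLK11), the kallikrein inhibitor gene SPINK5, the cathepsin gene CTSV, the desmosomal cadherin gene DSG3 and the kinase gene RIPK4. The 9 genes are named members out of 60671 genes in the count table, and they were chosen from fold changes of these same libraries. Their fold changes and the counts of called genes are therefore given as a description, and nothing is tested with them.

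The cells were HT115, an established human colorectal cancer line, and poly(A) RNA was sequenced in 15 libraries. All 15 had received 0.5 µg/ml doxycycline for 24 h, which switched on GFP (the control, 3 libraries), V5-tagged wild-type SOX9 (labelled CSOX9, 3 libraries) or a V5-tagged mutant SOX9 labelled M228, M303 or M379 (3 libraries each). M303 is a truncated SOX9 per the series text. What M228 and M379 stand for is not stated. That text counts 6 experiments in duplicate, whereas the labels give 5 groups of 3, and the labels were followed. Whether the 3 libraries of a group are separate cultures is not stated. Every SD here is the spread between the libraries of a group and may be technical only. Every SE of a fold change rests on a spread fitted over all 5 groups together, and may be technical only too. No uninduced library was analysed here.

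Kallikreins are secreted serine proteases whose genes lie side by side in one cluster. In the epidermis KLK7 cleaves the proteins that hold corneocytes together, so that the outermost cells are shed, and the other epidermal kallikreins take part in activating one another. SPINK5 encodes LEKTI, a secreted multidomain inhibitor of epidermal kallikreins whose loss causes Netherton syndrome. CTSV encodes cathepsin V, a lysosomal cysteine protease, DSG3 encodes desmoglein 3, an adhesion protein of desmosomes, and RIPK4 encodes a kinase needed for keratinocyte differentiation. SOX9 is a transcription factor of stem and progenitor cells, expressed at the base of intestinal crypts.

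The stretches around the start sites of 4 of the genes are shown because KLK10 and KLK7 were among the 3 most abundant of the 5 kallikreins followed and because SPINK5 and CTSV moved together across the groups, the last 2 being chosen after their values were seen. Each line gives 250 bases before and 50 bases from the start site, 5′ to 3′ on the gene's strand, from RefSeq (GRCh38.p14). Capitals mark matches on either strand to the SOX core ACAAT (KLK10) or to the TATA box TATAAA (SPINK5).
KLK7: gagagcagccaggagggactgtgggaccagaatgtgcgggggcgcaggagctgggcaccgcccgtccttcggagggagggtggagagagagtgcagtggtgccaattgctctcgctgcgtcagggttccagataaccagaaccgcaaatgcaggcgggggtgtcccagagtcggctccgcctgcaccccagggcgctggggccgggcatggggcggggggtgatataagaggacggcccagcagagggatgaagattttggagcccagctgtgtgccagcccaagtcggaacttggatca
KLK10: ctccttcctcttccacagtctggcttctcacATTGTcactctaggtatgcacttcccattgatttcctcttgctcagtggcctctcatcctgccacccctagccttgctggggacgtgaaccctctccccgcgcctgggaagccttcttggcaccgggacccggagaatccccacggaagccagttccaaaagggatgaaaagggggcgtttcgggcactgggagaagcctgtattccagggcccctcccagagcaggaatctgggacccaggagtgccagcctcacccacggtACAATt
SPINK5: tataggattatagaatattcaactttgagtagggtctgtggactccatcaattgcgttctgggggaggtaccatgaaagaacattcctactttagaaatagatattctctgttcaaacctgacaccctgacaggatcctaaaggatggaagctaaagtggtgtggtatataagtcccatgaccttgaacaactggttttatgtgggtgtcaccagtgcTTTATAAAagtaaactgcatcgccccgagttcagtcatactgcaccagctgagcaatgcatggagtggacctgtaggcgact
CTSV: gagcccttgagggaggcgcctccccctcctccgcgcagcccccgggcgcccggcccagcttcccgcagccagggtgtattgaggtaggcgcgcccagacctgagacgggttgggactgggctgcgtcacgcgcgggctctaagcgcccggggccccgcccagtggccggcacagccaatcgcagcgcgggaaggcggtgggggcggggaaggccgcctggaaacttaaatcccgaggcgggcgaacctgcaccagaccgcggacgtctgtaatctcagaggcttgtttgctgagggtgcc
The KLK7 window is chr19:50983868-50984167 on the minus strand, and the KLK10 window is chr19:51019812-51020111 on the minus strand. The SPINK5 window is chr5:148063730-148064029 on the plus strand, and the CTSV window is chr9:97039093-97039392 on the minus strand. The KLK10 window held 2 SOX core matches, 219 bases before and 44 bases after the start site. The 2 capital stretches of SPINK5 overlap and lie 32 and 30 bases before its start site. The KLK7 and CTSV windows held no match to the SOX core, the TATA box, the AP-1 motif (TGANTCA) or the grainyhead motif (AACCGGTT). RefSeq windows were found for 7 of the 9 genes, 11 windows in all, of which 3 held the SOX core, 1 held the TATA box and 0 held either of the other motifs. Among all 35116 windows of this length, 27.4% held the SOX core, 11.5% the TATA box, 7.71% the AP-1 motif and 0.134% the grainyhead motif. The GC content was 65.0% in the KLK7 window, 59.0% in KLK10, 43.7% in SPINK5 and 71.3% in CTSV, and the median over all windows was 58.7%. A match of letters is not a bound site, and its absence says only that the letters are not in this window.

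The libraries held between 3054755 reads (GFP replicate 1) and 31704249 reads (M303 replicate 1), so that 3 reads were worth 0.911 CPM (the read count scaled to library size, with TMM factors) in the shallowest and 0.0894 CPM in the deepest. GFP replicate 2 stood apart, with a ribosomal protein share of 6.61% of its reads, beside 3.42% to 4.52% in all 14 others. The GFP group also had the widest spread, a median dispersion of 0.0976 against 0.0104 to 0.0233 in the other groups. Since the fit shares a dispersion per gene among the 5 groups, the SE and the calls against GFP borrow from the tighter groups. On the 2 groups alone, CSOX9, M228, M303 and M379 against GFP each gave 0 calls of the 9. Of all genes tested 0%, 0.0203%, 0.0126% and 0.00666% were then called. SOX9 itself was at 119 ± 33.9 CPM (SD, n = 3) in GFP, 213 ± 28.6 in CSOX9, 2102 ± 249.6 in M228, 3004 ± 51.9 in M303 and 2211 ± 158 in M379. All 3 CSOX9 libraries lay above all 3 GFP libraries for SOX9, but the difference was not called (log2 fold change 0.84 ± 0.18 SE, adjusted p = 0.11, edgeR quasi-likelihood test), whereas SOX9 rose in each mutant group (log2 fold change 4.14, 4.66 and 4.22 in M228, M303 and M379). The reads do not tell the induced SOX9 RNA from the cell's own. Since every mutant group also had far more SOX9 RNA than CSOX9, mutation and SOX9 RNA level cannot be told apart between them. The 12 colorectal epithelial markers (KRT8, KRT18, CDX2, VIL1 and others) were all tested, with a summed level of 12041 to 26380 CPM in the GFP libraries and 14061 to 22550 CPM in the others.

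The keratinocyte-type part of the name rests on where these genes are known from, not on the other keratinocyte genes of these cells. KRT1, a keratin of differentiating epidermis, had 0 reads in all 15 libraries together, IVL (involucrin) and FLG (filaggrin) had 1 read each, KRT5 21 and TP63 22. Of the 7 keratinocyte markers only KRT10 and KRT14 had enough reads to be tested, and neither was called in any of the 10 comparisons. Their summed level, nearly all of it KRT10, ran from 23.4 to 47.2 CPM in GFP, 26.6 to 29.2 in CSOX9, 23.4 to 36.5 in M228, 26.6 to 30.4 in M303 and 25.3 to 34.3 in M379. Of 38 genes of the cornified envelope and epidermal keratins, 26 had 100 reads or fewer over all libraries, 8 of these had none, and 0 of the 12 tested were called in any of the 10 comparisons. At an unadjusted p under 0.05 (edgeR, either direction) there were 5, 3, 1 and 1 of these 12 in CSOX9, M228, M303 and M379 against GFP. Of all 16160 genes tested there were 1723, 1515, 1260 and 1094. Fibroblast markers summed to 3.34 to 6.27 CPM and leukocyte markers to 0.0649 to 1.21 CPM.

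All 9 genes passed the filter on low counts (16160 genes tested), KLK8 with few reads. Per kilobase of exon, KLK11 and KLK10 were the most abundant of the 9 in GFP at 30.2 ± 10.8 and 24.9 ± 7.92 CPM per kb, which do not differ beyond their spread. KLK7 followed at 12.0 ± 3.01, then RIPK4 (4.32 ± 0.69), KLK6 (3.68 ± 1.18) and DSG3 (3.47 ± 1.56), whose spreads overlap. CTSV (0.936 ± 0.407), SPINK5 (0.596 ± 0.261) and KLK8 (0.381 ± 0.350) were the lowest, with overlapping spreads. In CSOX9 KLK7 reached the level of the leading pair, with 35.7 ± 11.8 CPM per kb beside 37.3 ± 1.93 for KLK11 and 33.1 ± 2.52 for KLK10. In M303 DSG3 (9.80 ± 1.44) stood above RIPK4 (6.08 ± 0.34), the reverse of their order in CSOX9 (4.86 ± 0.48 and 8.31 ± 1.30).

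**Figure D1:**
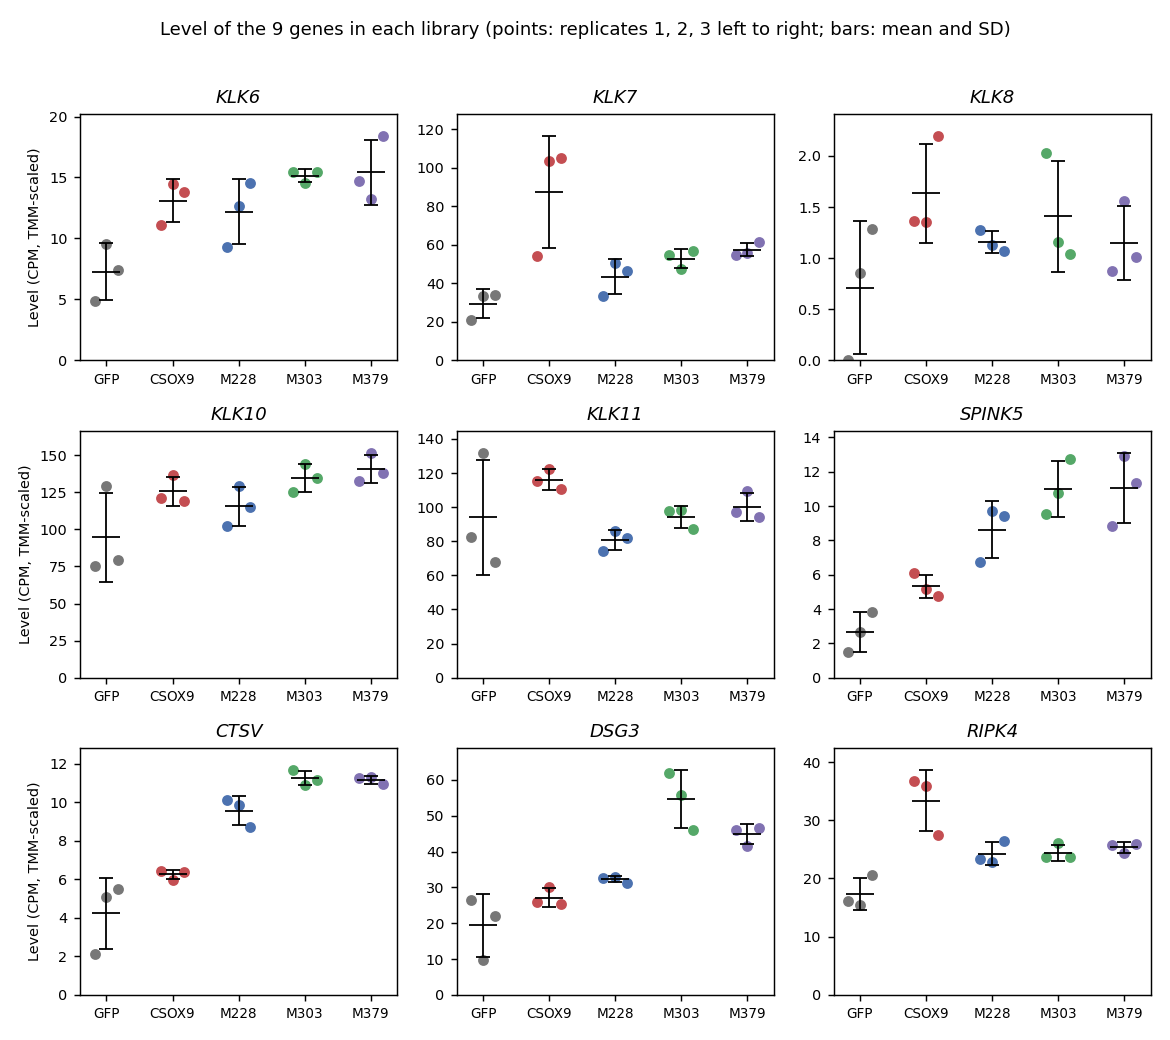
Level of each of the 9 genes in each library (vertical axis, TMM-scaled CPM) by group (horizontal axis), with points for replicates 1 to 3 from left to right and bars for the mean and SD. KLK7 and RIPK4 are highest in CSOX9 (means 87.4 and 33.4 CPM), SPINK5, CTSV and DSG3 are highest in the mutant groups, and the GFP libraries spread widely for KLK10 and KLK11 (SD 30.1 and 33.5 CPM).

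With wild-type SOX9, 2 of the 9 genes rose against GFP, the protease gene KLK7 and the kinase gene RIPK4. KLK7 read 20.9, 33.3 and 34.0 CPM in the GFP libraries (replicates 1, 2 and 3) and 53.9, 103 and 105 CPM in the CSOX9 libraries. The 2 groups do not overlap, and CSOX9 replicate 1 lay at about the level of the mutant libraries. KLK7 was 2.90-fold higher in CSOX9 (log2 fold change 1.54 ± 0.24 SE). RIPK4 read 16.1, 15.5 and 20.5 CPM in GFP and 36.8, 35.9 and 27.4 CPM in CSOX9, again without overlap, a 1.91-fold difference (log2 0.93 ± 0.15 SE). In this comparison 0.0248% of the 16160 genes tested were called higher (4 genes), beside 2 of the 9 genes described here. Since this comparison was among those used to choose the genes, nothing is read from that share. In all, 6 of the 9 (KLK6, KLK7, KLK8, SPINK5, CTSV and RIPK4) had all 3 CSOX9 libraries above all 3 GFP libraries, as did 6.6% of all genes tested. For KLK8 this rests on very few reads, 20 in CSOX9 replicate 2 (1.355 CPM) against 21 in GFP replicate 3 (1.28 CPM). In bulk RNA, more RNA per cell and more cells making it cannot be told apart. The KLK7 call was lost without GFP replicate 1, GFP replicate 2, CSOX9 replicate 2 or CSOX9 replicate 3, and the RIPK4 call without GFP replicate 1, GFP replicate 2, CSOX9 replicate 1 or CSOX9 replicate 2. With any 1 library left out, the log2 fold change stayed between 1.37 and 1.80 for KLK7 and between 0.83 and 1.09 for RIPK4.

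In the mutant groups KLK7 lay between GFP and CSOX9. It read 33.3, 50.8 and 46.4 CPM in M228, 54.6, 47.4 and 56.6 CPM in M303 and 54.9, 56.0 and 61.5 CPM in M379. All M303 and M379 libraries lay above all GFP libraries, while M228 overlapped GFP. Against GFP the log2 fold change was 0.53 ± 0.24 SE in M228, 0.82 ± 0.24 in M303 and 0.94 ± 0.24 in M379, none of them called. Against CSOX9 it was -1.01 ± 0.24 in M228, where no library overlapped CSOX9, -0.72 ± 0.23 in M303 and -0.60 ± 0.23 in M379, again not called. RIPK4 read 23.4, 22.8 and 26.5 CPM in M228, 23.6, 26.0 and 23.7 CPM in M303 and 25.7, 24.3 and 26.0 CPM in M379. Each of these 9 RIPK4 values lay above every GFP library and below every CSOX9 library. The RIPK4 log2 fold changes of 0.47 ± 0.15 (M228), 0.48 ± 0.15 (M303) and 0.53 ± 0.15 (M379) against GFP and of -0.46 ± 0.14, -0.45 ± 0.14 and -0.40 ± 0.14 against CSOX9 were not called.

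SPINK5, CTSV and DSG3 were also lowest on average in GFP, but had their highest levels in the mutant groups and not in CSOX9. SPINK5, the inhibitor gene, read 1.52, 2.64 and 3.85 CPM in GFP (5, 31 and 63 reads) and 6.07, 5.15 and 4.77 CPM in CSOX9. It read 6.72, 9.73 and 9.42 CPM in M228, 9.51, 10.8 and 12.7 CPM in M303 and 8.84, 12.9 and 11.3 CPM in M379. All 9 mutant libraries were above all CSOX9 libraries, which were above all GFP libraries. SPINK5 rose in every mutant group against GFP, by 2.89-fold in M228 (log2 1.53 ± 0.26 SE), 3.70-fold in M303 (1.89 ± 0.25) and 3.72-fold in M379 (1.90 ± 0.26). The log2 fold change in CSOX9 against GFP was 0.86 ± 0.26, not called. The M303 call held with each of the 6 libraries left out in turn. The M228 call (log2 fold change 1.38 to 1.89 with 1 library left out) was lost without GFP replicate 2, M228 replicate 2 or M228 replicate 3, and the M379 call (1.74 to 2.26) without M379 replicate 2 or M379 replicate 3.

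CTSV read 2.13, 5.10 and 5.50 CPM in GFP, the first of these from 7 reads, and 6.41, 5.96 and 6.39 CPM in CSOX9. It read 10.1, 9.87 and 8.69 CPM in M228, 11.7, 10.9 and 11.2 CPM in M303 and 11.3, 11.3 and 10.9 CPM in M379. The mutant libraries were again all above the CSOX9 libraries, and these all above GFP. CTSV rose 2.41-fold in M303 (log2 1.27 ± 0.20 SE) and 2.39-fold in M379 (1.26 ± 0.20) against GFP. Its log2 fold change in M228 was 1.03 ± 0.21, not called in the unpaired fit and called at 1.00 with the replicate number as a block. In CSOX9 it was 0.42 ± 0.21, not called. Leaving out any of the 3 M303 libraries lost the M303 call (1.08 to 1.45). The M379 call (1.07 to 1.44) was lost without any of the M379 libraries or without GFP replicate 2.

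DSG3 differed more between the mutants. It read 26.4, 9.61 and 22.1 CPM in GFP and 25.8, 30.2 and 25.4 CPM in CSOX9, which overlap. It read 32.7, 32.9 and 31.3 CPM in M228, 62.0, 55.8 and 46.1 CPM in M303 and 46.2, 41.6 and 46.7 CPM in M379. All M303 and M379 libraries were above all M228 libraries, which in turn were above all CSOX9 and GFP libraries. DSG3 rose 2.91-fold in M303 against GFP (log2 1.54 ± 0.25 SE), and its log2 fold changes of 0.78 ± 0.25 in M228 and 1.26 ± 0.25 in M379 were not called. The low GFP value is that of replicate 2, the library with the high ribosomal protein share, where 7 of the 10 other desmosomal genes tested were at their lowest and 2 at their highest. Examples, chosen after their values were seen, follow. DSG2 was at 163.8 CPM there and at 426 CPM or more elsewhere, DSP at 222 and 554, PKP2 at 99.3 and 202, and DSC2 at 75.6 and 161. JUP and PKP3, of the same complex, were the 2 at their highest in that library (793 and 329 CPM), and the part of this library in the DSG3 result is shown by leaving it out. Without GFP replicate 2 the DSG3 log2 fold change was 1.20 in M303 and 0.91 in M379, both called, 0.44 in M228 and 0.20 in CSOX9. The M303 call was lost without any one of the 3 M303 libraries (1.20 to 1.77 over the 6 leave-one-out fits).

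In numbers of called genes, M228 against GFP gave 1 of the 9 (SPINK5), beside 0.204% of all genes tested called higher. M303 against GFP gave 3 (SPINK5, CTSV and DSG3), beside 0.105%, and M379 against GFP gave 2 (SPINK5 and CTSV), beside 0.0371%. With the replicate number as a block, CTSV joined SPINK5 in M228 and KLK6 joined the 3 genes in M303 (log2 fold change 1.02). Same-numbered libraries deviated together in these 3 comparisons. The block fit also held the CSOX9 libraries, however, which did not all deviate together with the others. The share of all genes called higher also grew with the block, to 0.78% in M228 (126 genes) and 0.377% in M303 (61 genes). All 3 mutant libraries lay above all 3 GFP libraries for 4 of the 9 genes in M228 (5.3% of all genes tested), for 6 in M303 (5.5%) and for 7 in M379 (4.91%). The groups and comparisons are those the genes were chosen on, so these shares are a description. The 4 comparisons against GFP share its libraries, as the 3 against CSOX9 share theirs. The median log2 fold change of the 9 genes against GFP was 0.78 in CSOX9, 0.53 in M228, 0.82 in M303 and 0.94 in M379, and the median over all genes tested was 0.01, -0.00, 0.01 and 0.01.

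**Figure D2:**
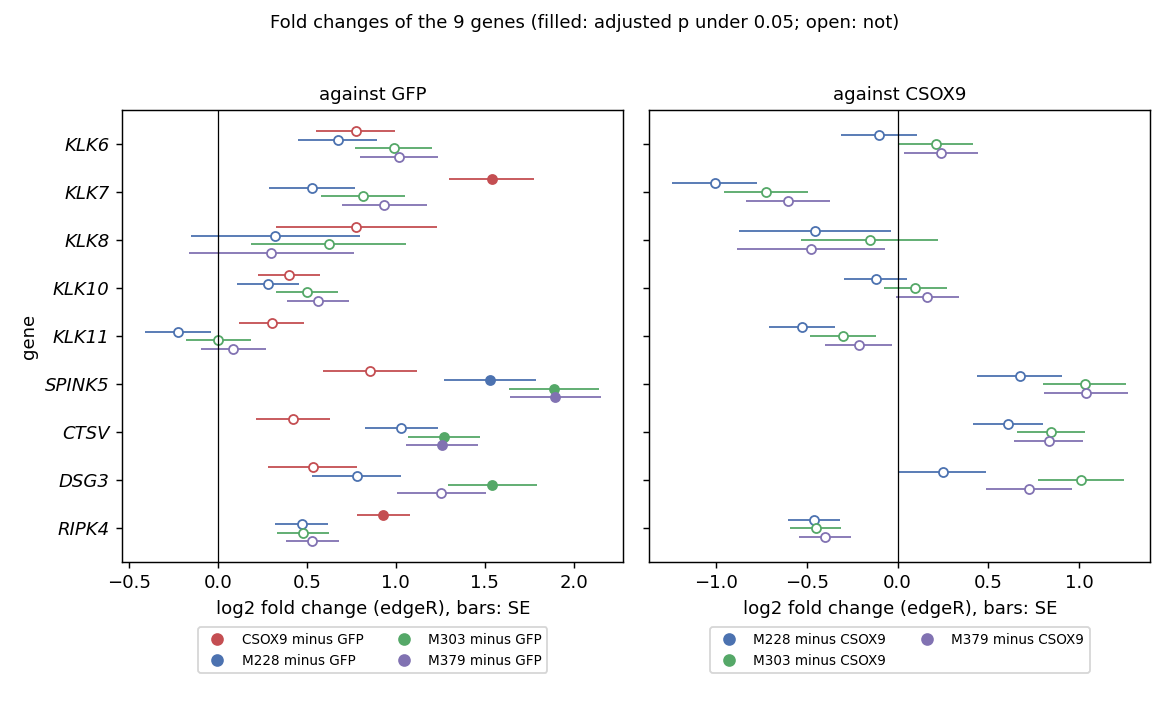
Log2 fold change of each of the 9 genes (horizontal axis) from the edgeR fit, with bars for the SE, against GFP (left) and against CSOX9 (right); filled points have an adjusted p under 0.05. Against CSOX9 no point is filled: KLK7 and RIPK4 lie left of 0 and SPINK5, CTSV and DSG3 right of it in all 3 mutants.

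The mutants differ from CSOX9 in SOX9 RNA level as well as in the mutation, and these cannot be told apart in what follows. Between each mutant and wild-type SOX9 no gene of the 9 was called by edgeR, beside 0.569% of all genes tested called in either direction in M228, 0.384% in M303 and 0.124% in M379. At an unadjusted p under 0.05 there were 5 of the 9 in each of these comparisons, beside 6.65%, 6.31% and 4.7% of all genes tested in M228, M303 and M379. DESeq2 called 1 in M228 (KLK7), 3 in M303 (SPINK5, CTSV and DSG3) and 2 in M379 (SPINK5 and CTSV), beside 1.32%, 0.756% and 0.287% of all genes to which it gave an adjusted p. With the replicate number as a block edgeR also called 1, 3 and 2, beside 1.97%, 1.6% and 0.656% of all genes. Same-numbered libraries of CSOX9 and the mutants did not all deviate together, which limits this block. On the 2 groups alone it called 2, 3 and 3, beside 1.85%, 0.757% and 1.03%. SPINK5, CTSV and DSG3 had all 3 mutant libraries above all 3 CSOX9 libraries in every mutant group, joined by KLK6 in M303. That makes 3 genes in M228 (7.1% of all genes tested were so), 4 in M303 (9.5%) and 3 in M379 (9.73%). RIPK4 and KLK11 had all 3 mutant libraries below CSOX9 in every mutant group, joined by KLK7 and KLK8 in M228. That makes 4 genes in M228 (8.6%), 2 in M303 (9.01%) and 2 in M379 (9.47%). For KLK8 this rests on 20 reads in M228 replicate 1 (1.28 CPM) against 20 in CSOX9 replicate 2 (1.355 CPM). The log2 fold changes of SPINK5 against CSOX9 were 0.67 ± 0.24 SE, 1.03 ± 0.23 and 1.04 ± 0.23 in M228, M303 and M379, those of CTSV 0.61 ± 0.19, 0.85 ± 0.19 and 0.83 ± 0.19, and those of DSG3 0.25 ± 0.24, 1.01 ± 0.24 and 0.72 ± 0.24.

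Among the 3 mutants no gene of the 9 was called in the edgeR fit reported here. The share of all genes called was 0.0124% between M303 and M228, 0.0433% between M379 and M228 and 0% between M379 and M303. At an unadjusted p under 0.05 there was 1 of the 9 between M303 and M228 and 0 in the other 2 comparisons, beside 2.66%, 3.47% and 0.848% of all genes. DESeq2 called 0 of the 9 in each, beside 0.0597%, 0.0925% and 0% of all genes. DSG3 was the gene with the largest fold between mutants, 1.70-fold higher in M303 than in M228 (log2 0.76 ± 0.24 SE). CTSV, DSG3 and KLK11 had all 3 M303 libraries above all 3 M228 libraries (5.13% of all genes tested), and these 3 with KLK7 and KLK10 had all 3 M379 libraries above M228 (5.93%). M379 and M303 overlapped for each of the 9 genes.

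None of KLK6, KLK8, KLK10 and KLK11 was called against GFP in the unpaired fit. KLK10, known as NES1 for its expression in normal epithelial cells, read 75.6, 129 and 79.0 CPM in GFP, 121, 137 and 119 CPM in CSOX9 and 102, 129 and 115 CPM in M228. It read 125, 144 and 135 CPM in M303 and 133, 151 and 138 CPM in M379. GFP replicate 2 alone among the GFP libraries reached the level of the SOX9 groups. The log2 fold change of KLK10 against GFP was 0.40 ± 0.17 SE in CSOX9, 0.28 ± 0.17 in M228, 0.50 ± 0.17 in M303 and 0.57 ± 0.17 in M379, none called. Without GFP replicate 2 it was 0.79 in M303 and 0.86 in M379, both called, and 0.70 in CSOX9 and 0.57 in M228, not called.

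KLK11, which is known to be trypsin-like in its cleavage, read 82.6, 132 and 67.6 CPM in GFP, 115, 123 and 111 CPM in CSOX9 and 74.2, 86.2 and 81.9 CPM in M228. It read 97.8, 98.6 and 86.9 CPM in M303 and 96.9, 109 and 94.2 CPM in M379. The GFP libraries spanned the whole range of the other groups, with replicate 2 the highest, while every mutant library was below every CSOX9 library. The log2 fold change against GFP was 0.30 ± 0.18 SE in CSOX9, -0.22 ± 0.19 in M228, 0.00 ± 0.18 in M303 and 0.09 ± 0.18 in M379. Without GFP replicate 2 the M228 value was 0.12, the other sign.

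KLK6, also called neurosin, read 4.86, 9.53 and 7.45 CPM in GFP, 11.1, 14.4 and 13.8 CPM in CSOX9 and 9.34, 12.7 and 14.6 CPM in M228. It read 15.4, 14.5 and 15.5 CPM in M303 and 14.7, 13.2 and 18.4 CPM in M379. The CSOX9, M303 and M379 libraries were all above GFP, and M228 overlapped it by 1 library. The log2 fold changes of 0.78 ± 0.22 SE (CSOX9), 0.67 ± 0.22 (M228), 0.99 ± 0.22 (M303) and 1.02 ± 0.22 (M379) were not called in the unpaired fit. Of the exon bases of KLK6, 20.5% lie under genes on the other strand, which the counting could not separate, so part of its reads may not have been assigned. ENSG00000267879, one of these genes, had at most 2 reads in any library, which does not settle this, since its own reads may be unassigned too.

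KLK8, also called neuropsin, was close to the limit of detection. It had 0, 10 and 21 reads in the GFP libraries, 28, 20 and 23 in CSOX9, 20, 8 and 19 in M228, 68, 30 and 22 in M303 and 13, 24 and 17 in M379. In GFP replicate 1 the 0 reads allow up to 0.911 CPM, which is no lower than the value of 0.851 CPM in GFP replicate 2, so the low GFP mean of 0.711 CPM is not distinguishable from the mutant groups at this depth. The means were 1.64 CPM in CSOX9, 1.16 in M228, 1.41 in M303 and 1.15 in M379. On the same strand, 40.1% of the exon bases of KLK8 are shared with KLK9 and a readthrough gene, both listed at 0 reads in all libraries, so part of its reads may not have been assigned.

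The 5 kallikreins lie in a cluster of 15 kallikrein genes at chr19:50819146-51084245 (GRCh38, 25 annotated genes). Going along the cluster, KLK6 (50958631 to 50969673), KLK7 (50976468 to 50984099), KLK8 (50996007 to 51002711), KLK10 (51012739 to 51020175) and KLK11 (51022216 to 51028039) form one stretch on the minus strand, interrupted among kallikreins only by KLK9. Of the 20 other genes of the cluster, 17 had 100 reads or fewer over all libraries, 5 of them none, and 2 were tested (KLK1 and KLK13), neither of which was called in any comparison. KLK9, one of those without reads, shares 96.3% of its exon bases with genes on the same strand, so its reads may not have been assigned. KLK1, tissue kallikrein, at the other end of the cluster, read 23.2 to 46.5 CPM in GFP and 21.2 to 40.7 CPM in the other libraries. Its log2 fold change against GFP in CSOX9, M228, M303 and M379 was -0.14, -0.20, -0.23 and -0.36, each ± 0.26 SE (adjusted p = 0.834, 0.824, 0.833 and 0.857, edgeR). KLK13 was near the floor, at 0.393 CPM in GFP and 0.762 to 1.11 CPM on average in the other groups. SPINK5 lies on chromosome 5 (148025683 to 148137382), CTSV on chromosome 9 (97029677 to 97039643), DSG3 on chromosome 18 (31447741 to 31478702) and RIPK4 on chromosome 21 (41739369 to 41767089).

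KLK1, KLK6, KLK7, KLK10 and KLK11 made up 97.5% to 99.3% of the summed kallikrein level per kilobase in every library. KLK7 took 14.3% ± 4.48 (SD, n = 3) of that sum in GFP, 27.4% ± 7.10 in CSOX9, 18.7% ± 2.51 in M228, 19.7% ± 1.98 in M303 and 20.6% ± 1.63 in M379. KLK11 took the largest share in GFP, 34.3% ± 3.42, and 29.3% ± 2.83 in CSOX9, and KLK10 took the largest share in M228 (32.1% ± 1.14), M303 (32.4% ± 3.22) and M379 (32.5% ± 1.30).

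**Figure D3:**
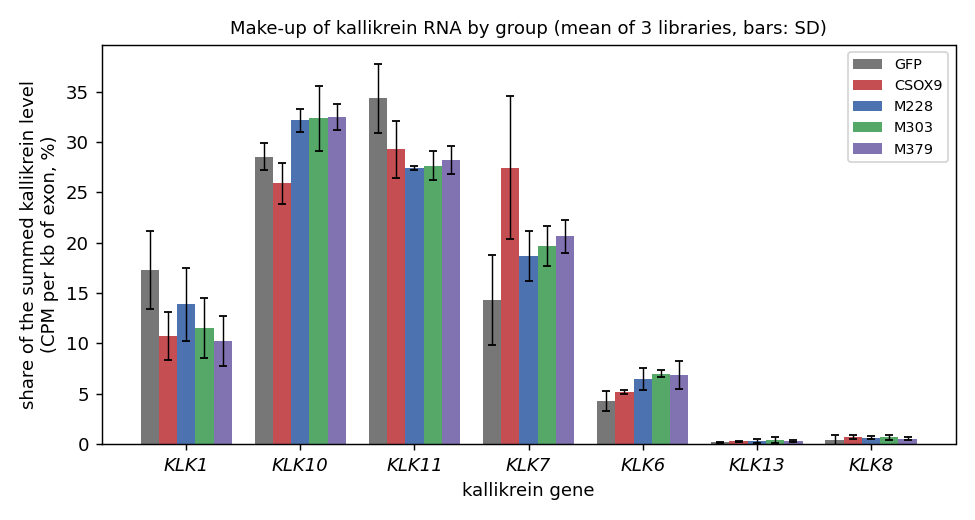
Share of each of 7 kallikrein genes (horizontal axis) in the summed level of all 15 kallikrein genes, in percent of CPM per kilobase of exon (vertical axis), as the mean of 3 libraries with SD. KLK7 takes 27.4% in CSOX9 against 14.3% in GFP, and KLK10 and KLK11 take the largest shares in GFP and in the mutants.

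Ratios of 2 genes within a library do not depend on the scaling between libraries, and 5 were followed after the levels had been seen, 2 of which separated all mutant libraries from the others. KLK11 over KLK10, per kilobase, was 1.33, 1.24 and 1.04 in GFP and 1.16, 1.09 and 1.13 in CSOX9. It was 0.884, 0.815 and 0.866 in M228, 0.955, 0.835 and 0.787 in M303 and 0.891, 0.880 and 0.832 in M379. All 9 mutant libraries were below all 6 GFP and CSOX9 libraries. SPINK5 over KLK7, the inhibitor over a protease that its product is known to inhibit, was 0.0396, 0.0433 and 0.0619 in GFP and 0.0616, 0.0273 and 0.0248 in CSOX9. It was 0.110, 0.105 and 0.111 in M228, 0.0953, 0.124 and 0.123 in M303 and 0.0881, 0.126 and 0.101 in M379, all above the other 6 libraries. KLK7 over KLK10 was 0.430, 0.400 and 0.668 in GFP, 0.692, 1.17 and 1.37 in CSOX9 and 0.505 to 0.691 in the mutant libraries, so that CSOX9 replicate 1 lay just above the highest mutant library. RIPK4 over KLK7 (0.283 to 0.468 in GFP, 0.159 to 0.416 in CSOX9 and 0.255 to 0.428 in the mutants) and SPINK5 over CTSV (0.524 to 0.724, 0.756 to 0.960 and 0.674 to 1.16) overlapped between the mutants and both other groups. These ratios are between RNA levels and were not tested, since the genes were chosen on the same values.

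**Figure D4:**
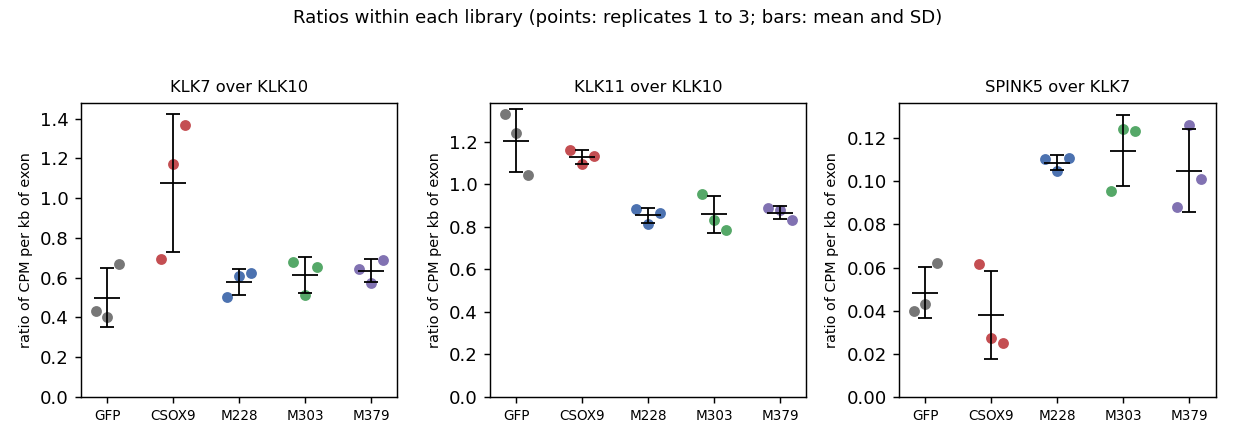
Ratio of 2 genes within each library (vertical axes, ratio of CPM per kilobase) by group (horizontal axes), with points for replicates 1 to 3 and bars for the mean and SD. The mutant groups lie below GFP and CSOX9 for KLK11 over KLK10 and above them for SPINK5 over KLK7.

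Across the 15 libraries SPINK5 and CTSV had the most similar profiles of the 9 genes (Pearson r = 0.95 of log2 CPM, and 0.98 over the 10 libraries that are replicates 2 and 3). Over the 15 libraries KLK6 came closer to SPINK5 (r = 0.83, 0.71 over the 10) than DSG3 did (0.75). Over the 10 libraries DSG3 came closer (0.90). KLK6 and KLK10 had r = 0.855 (0.725). KLK7 and RIPK4 had r = 0.75 (0.81). KLK11 had r = -0.05 with SPINK5 and -0.03 with CTSV over the 15 libraries, and -0.29 and -0.24 over the 10. These are descriptions over libraries that share their 5 groups and differ in depth, and the shallow GFP replicate 1 weighs on KLK8, whose r with KLK6 was 0.66 over 15 libraries and 0.03 over the 10.

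**Figure D5:**
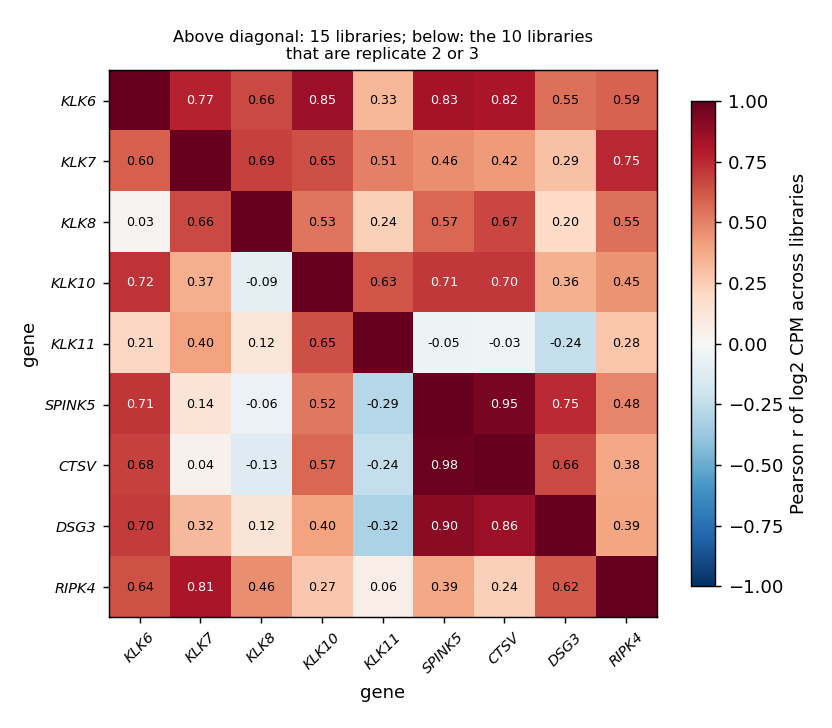
Pearson r of log2 CPM between each pair of the 9 genes (both axes), over 15 libraries above the diagonal and over the 10 libraries that are replicate 2 or 3 below it. Below the diagonal SPINK5, CTSV and DSG3 form the block of highest values (0.86 to 0.98).

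Outside the 9 genes, the profile most like the mean of the 5 kallikreins was that of PODXL2, which encodes a sialomucin-like membrane protein (r = 0.92 over 15 libraries, 0.78 over the 10). TAS1R3, DUSP10, ACY1 and NDRG4 came next, with r of 0.87, 0.86, 0.85 and 0.84. Their mean levels were low, at 0.842, 7.19, 3.09 and 2.34 CPM. TAS1R3 read 0 CPM in the shallow GFP replicate 1, as did KLK8, which is part of the kallikrein mean. The profiles most like RIPK4 were those of FHDC1 (r = 0.96), the hemidesmosomal integrin gene ITGB4 (0.95), HUNK (0.94), HEG1 (0.93) and LRRC8A (0.92), all between 0.91 and 0.95 over the 10 libraries. HUNK, for example, read 13.1, 11.7 and 16.3 CPM in GFP and 37.1, 32.9 and 28.8 CPM in CSOX9, with 18.1 to 23.6 CPM in the mutants.

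Of the genes with related roles, few were called, as was so of all genes. In the 7 comparisons against GFP or CSOX9, 0.0309% to 0.569% of all genes tested were called in either direction. At that share, 0 calls in lists this short are not read as a result about them. The 10 other kallikreins (2 tested), the 4 protease-activated receptors (2 tested), 14 other desmosomal genes (10 tested) and 4 other RIPK family genes (all tested) gave 0 calls in the 7 comparisons against GFP or CSOX9 by edgeR. Their median log2 fold changes ran over these comparisons from -0.12 to 0.62, -0.08 to 0.57, -0.03 to 0.41 and -0.13 to 0.09. F2RL1, a receptor that trypsin-like proteases activate, was at 68.0 to 119.9 CPM in all libraries. The desmosomal genes with the highest levels per kilobase were PERP, at a median of 820.0 CPM, and JUP (plakoglobin), at 707 CPM. RIPK1, the member of the RIPK family with the highest level, was at 34.2 to 52.0 CPM.

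Among 26 other serine protease inhibitors, of which 14 were tested, SERPINE2, an inhibitor of thrombin and urokinase, was called higher in M228 and in no other group. It was at 45.5, 54.9 and 40.2 CPM there and at 20.2 to 29.6 CPM in the 12 other libraries, 0.87 ± 0.15 (log2, SE) against GFP (adjusted p = 0.0241, edgeR) and 1.02 ± 0.15 against CSOX9 (adjusted p = 0.00475). The call against GFP was lost without GFP replicate 1, M228 replicate 1 or M228 replicate 2 (log2 fold change 0.75 to 1.00). SERPINB1 and SPINT1, the inhibitors with the highest levels per kilobase, were at medians of 281 and 210.0 CPM and were not called.

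Among 18 other serine proteases, of which 11 were tested, PRSS23 and TMPRSS4 were called higher in mutants, and PLAT was called in each mutant against CSOX9 and in none against GFP. PRSS23, a secreted protease, read 64.4, 77.1 and 71.3 CPM in GFP and 155, 169.5 and 138 CPM in M228, a log2 fold change of 1.11 ± 0.15 (SE, adjusted p = 0.00482, edgeR), which held with each library left out in turn. In M303 it was 0.82 ± 0.15 (adjusted p = 0.0485), a call that held without GFP replicate 2 and was lost without any other of the 6 libraries (0.71 to 0.92). PRSS23 was also above all GFP libraries in CSOX9, at 133, 117 and 98.9 CPM (0.71 ± 0.15). In M379 it was so too, at 107, 134 and 115 CPM (0.74 ± 0.15). Neither was called, so the higher PRSS23 level was not particular to the mutants. TMPRSS4, a membrane-bound serine protease, read 67.1, 77.1 and 75.1 CPM in GFP, 66.7, 63.2 and 62.8 CPM in CSOX9, 107, 123 and 121 CPM in M303 and 96.4, 102 and 110.5 CPM in M379. It rose against CSOX9 by 0.86 ± 0.12 on the log2 scale in M303 (adjusted p = 0.0065), lost without CSOX9 replicate 2 (0.82 to 0.92), and by 0.68 ± 0.12 in M379 (adjusted p = 0.0436), lost in all 6 leave-one-out fits (0.62 to 0.72). Against GFP TMPRSS4 rose by 0.67 ± 0.12 in M303 (adjusted p = 0.0485), again held only without GFP replicate 2 (0.61 to 0.73). PLAT, tissue plasminogen activator, read 0, 0.255 and 0.122 CPM in GFP, 2.33, 1.29 and 0.954 CPM in CSOX9 and 0 to 0.379 CPM in the mutants, from very few reads, so that CSOX9 lay above all other groups and the mutants overlapped GFP. CSOX9 against GFP was not called (adjusted p = 0.0795). Its fitted log2 fold changes against CSOX9 were -2.99 ± 0.53 in M228 (adjusted p = 0.014), -2.32 ± 0.42 in M303 (0.028) and -2.86 ± 0.50 in M379 (0.0412), and without 1 library they ran from -4.08 to -2.51, -2.53 to -1.84 and -3.07 to -2.38. The M228 call was lost without CSOX9 replicate 1, M228 replicate 1 or M228 replicate 2, and the M303 and M379 calls without CSOX9 replicate 1, CSOX9 replicate 2 or any library of the mutant. ST14 (matriptase) and PRSS8 (prostasin), a protease pair of epithelia, were at medians of 447 and 102 CPM and were not called.

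Of 21 other cathepsins and cystatins (16 tested), the cystatin gene CST6 rose in M228 against CSOX9 (log2 2.22 ± 0.46 SE, adjusted p = 0.039, edgeR), from 0 to 0.407 CPM in CSOX9 to 1.13 to 1.54 CPM in M228, with 0.304 to 0.611 CPM in GFP. CTSZ and CTSA, the cathepsins with the highest levels per kilobase, were at medians of 146 and 261 CPM and were not called. Of 15 keratinocyte transcription factors (12 tested), GRHL3, a grainyhead-like factor of epidermal barrier formation, rose in M228 against CSOX9 (1.06 ± 0.23, adjusted p = 0.046) and not by the test against GFP (1.18 ± 0.24, adjusted p = 0.0565). GRHL3 read 15.0, 21.01 and 21.1 CPM in M228 and 7.06 to 17.1 CPM in the 12 other libraries, which overlaps. Of the colorectal markers, CEACAM5 was lower in M303 than in CSOX9 (log2 fold change -0.66 ± 0.14, adjusted p = 0.047). Its mean was 445 CPM in GFP, 699.9 in CSOX9, 638 in M228, 442 in M303 and 442 in M379, so that M303 was at the level of GFP. The CST6, GRHL3 and CEACAM5 calls were each lost in all 6 leave-one-out fits, with log2 fold changes of 1.82 to 2.57, 0.93 to 1.21 and -0.73 to -0.54.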

How the data were processed

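Poly(A) RNA of 15 libraries of induced HT115 cells was sequenced. The submitters' processing notes name STAR 2.7.0a and hg38. As deposited, the counts table holds raw reads per gene from featureCounts 2.0.1 with the Ensembl GRCh38 release 101 annotation, per the file headers, together with each gene's exon length (other unit, bases). The recorded command names no strand and no pair option, so both strands were counted together and, on overlapping genes, cannot be told apart. A table of the authors' normalised values was not used, and 3 of its 15 columns match no sample label.

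Counts were fitted with edgeR 4.0.16 (R 4.3.3): TMM scaling, filterByExpr (16160 genes left), the quasi-likelihood test over all 15 libraries with a mean per group, 10 comparisons, Benjamini-Hochberg adjustment over all tested genes. A gene is called, and is said to rise or fall, at an adjusted p under 0.05. Levels are CPM by TMM-scaled library size, and log2 CPM adds 0.5 reads. Intervals are not given for single libraries; a count of 0 allows up to 3 reads, which covers counting error only. The fit was tested on data simulated with the same dispersion in every group. That test does not cover the wider spread of the GFP libraries. DESeq2 1.42.0 and the other alternatives are in the closing part.

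The 9 genes, the companion lists (13 lists, cell type markers included) and the motifs were chosen with earlier results of these data known. Named companion genes are those called against GFP or CSOX9 (up to 4 a list, lowest adjusted p first) and those with the highest level per kilobase; the 5 profiles most like the kallikreins and RIPK4 are named. Same-numbered libraries deviated together (correlation over 0.1 for every pair) between the mutants and GFP and among the mutants (0.171 to 0.567). Between CSOX9 and the others this rule was not met, with correlations of -0.028 to 0.333. The fit with the replicate number as a block was over all 15 libraries, CSOX9 included. Promoter windows come from RefSeq, matched by symbol.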

Additional observations from a re-analysis of the deposited data

How the results depend on the processing

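Across the alternatives most fold changes of the 9 genes moved by less than the spread between replicates. The number of the 9 genes called moved by over 1.5 times in most comparisons with GFP or CSOX9. In numbers, 1163 of 1170 fold changes moved by less than that spread, 7 by more, and 0 of the called ones changed sign. Against GFP this is a lenient measure, because the GFP libraries themselves spread widely. KLK11 in M228 against GFP, which was not called, changed sign without GFP replicate 2. Mean levels by plain library total stayed within the spread in 45 of 45 cases. Of the 9 genes, DESeq2 called 2 in M228, 4 in M303 and 4 in M379 against GFP, and 1, 3 and 2 in M228, M303 and M379 against CSOX9. Without a filter on low counts the numbers were 3, 5 and 5 against GFP, 1, 4 and 2 against CSOX9, and 1 between M303 and M228 (47 of all genes). With RLE size factors M379 against GFP gave 1, beside 3 of all genes. The number of all genes called moved as well: M228, M303 and M379 against GFP had 39, 19 and 6 in the fit reported, 167, 83 and 45 by DESeq2, 282, 212 and 74 without a filter, and 181, 85 and 17 with the replicate number as a block; against CSOX9 they had 92, 62 and 20, then 216, 150 and 57, then 320, 273 and 137, then 319, 259 and 106. On the 2 groups alone, CSOX9 and each mutant against GFP gave 0, and the mutants against CSOX9 gave 2, 3 and 3 (of all genes, 0, 3, 2 and 1, and 278, 121 and 156). On replicates 2 and 3 of every group, CSOX9 against GFP gave 1, M228 against GFP 0, M303 and M379 against GFP 1 each, and M228 against CSOX9 1 (KLK7); of all genes, 1, 9, 4, 3 and 21 were called. With the replicate number as a block the calls against GFP were 2 in CSOX9 (79 of all genes), 2 in M228, 4 in M303 and 2 in M379. Against CSOX9 they were 1, 3 and 2 in M228, M303 and M379. Among the mutants they were 0, beside 14 of all genes between M303 and M228, 25 between M379 and M228 and 0 between M379 and M303. Same-numbered libraries of CSOX9 and the other groups did not all deviate together. With the mutants their correlations were 0.267, 0.06 and 0.209 (M228), 0.333, 0.098 and 0.295 (M303) and 0.226, 0.065 and 0.2 (M379). Leaving out 1 library of the 2 groups gave 0 to 2 calls for CSOX9, 0 to 2 for M228, 1 to 4 for M303 and 0 to 3 for M379 against GFP, 0 to 1 for M228 against CSOX9, and 0 in the other 5 comparisons. Of all genes (16491 to 16691 tested), 0 to 32, 13 to 98, 4 to 26 and 2 to 10 were then called higher against GFP. For M228 against CSOX9, 13 to 29 of all genes were called lower. In the other 5 comparisons at most 19 were called higher and at most 14 lower. The cause of these changes was not tested. Over replicates 2 and 3 the correlation with the kallikrein mean fell to 0.784 for PODXL2, 0.762 for TAS1R3, 0.679 for ACY1 and 0.658 for NDRG4. Depth limits KLK8 in every group and SPINK5 and CTSV in GFP replicate 1, where they had 5 and 7 reads.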
